A study of Mus musculus with 15 samples.

Results

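Interleukin receptor subunits were read in sorted mouse dendritic cells (DCs) before and after maturation. They were taken as the genes whose array symbol starts with Il, a number and r, on probe sets with exactly 1 gene symbol. Il15ra and Il1rn were left out. This gave 34 of the 18194 genes with such a probe set. The 34 genes had 62 probe sets, and the one with the highest mean across the 15 arrays stood for its gene. A gene was tested when it was above 4.39 (log2), the 40th percentile of the values of the whole table, in at least 3 arrays. Of the 34 subunits 26 were tested, among 13629 genes in all. The other 8 (Il12rb1, Il13ra2, Il1rapl1, Il1rapl2, Il20ra, Il20rb, Il22ra1 and Il9r) lay between 2.43 and 4.65. The values used here carry no detection call, so these dim genes have no measured absence. Il2rg, which encodes the common gamma chain, Il1rl1, Il23r, Il11ra1 and Il11ra2 were not analysed here.

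Every group held 3 arrays of cells sorted as CD11c+ CD317- CD172a-. The mature fraction was CD117- CCR7+ and the immature fraction CD117+ CCR7-, and both are called XCR1+ DCs in the sample names although XCR1 is not among the gates given. The groups were thymus CCR7+ and thymus CCR7- cells of untreated mice, spleen CCR7+ cells of mice given 10 µg of polyI:C intraperitoneally 18 h before harvest, and spleen CCR7+ and spleen CCR7- cells of untreated mice. PolyI:C is a synthetic double-stranded RNA that is sensed by TLR3 and cytoplasmic RNA sensors. CCR7 is the chemokine receptor that DCs carry once they mature and move into T cell zones. Maturation without an infection or adjuvant is called homeostatic. The arrays ask how such maturation in the thymus and the spleen compares, and how both compare with the maturation that follows polyI:C. No CCR7- cells of treated mice were analysed here, so the polyI:C cells were set against untreated CCR7- cells, which the untreated CCR7+ cells were compared with as well, so these 2 comparisons share arrays. The labels give no strain, no age and no number of mice behind an array.

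Interleukin receptors are built from a few subunits, of which at least 1 binds the cytokine and at least 1 is shared between receptors. The class I receptors signal through Janus kinases (JAKs) and STAT proteins, with the common gamma chain for IL-2, IL-4, IL-7, IL-9, IL-15 and IL-21, the common beta chain for IL-3, IL-5 and GM-CSF, and gp130 for IL-6, IL-27 and related cytokines. The class II receptors bind the IL-10 and interferon families and use the same kinds of kinase. The IL-1 receptor family carries a TIR domain and signals through MyD88 and IRAK proteins, and the IL-17 receptors signal through the adaptor Act1.

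Array medians lay between 4.86 and 5.0, and the spread of an array about its group mean (SD of residuals) lay between 0.17 and 0.37, highest in replicate 1 of spleen CCR7+. Of 10 markers of XCR1+ DCs, 9 had a probe set and all 9 averaged above 4.39 in every group, a level below every array median. By the calls defined below, 6 of the 9 were lower in CCR7+ than CCR7- cells in thymus, 8 in untreated spleen and 7 after polyI:C. Called higher were 1, 1 and 0. Of all genes 20.4%, 24.1% and 28% were called lower and 16.8%, 12.3% and 18.4% higher. The median log2 change of the 9 was -2.65, -1.17 and -2.53. Xcr1 itself averaged 5.25 in thymus CCR7+ cells and 11.40 in thymus CCR7- cells. Markers of other cell types were also above the filter. The summed signal of 8 of 9 T cell markers (log2 of the sum) was 10.40 to 11.72 in thymus CCR7+, 8.64 to 9.73 in thymus CCR7-, 8.98 to 9.44 in spleen CCR7+ after polyI:C, 8.38 to 8.68 in untreated spleen CCR7+ and 7.55 to 8.0 in spleen CCR7- arrays. For 5 markers of immature thymocytes the sum was 8.96 to 10.45 in thymus CCR7+, 7.23 to 8.37 in thymus CCR7- and 6.81 to 7.03 over the 9 spleen arrays. For 5 of 6 B cell markers the sum was 8.38 to 10.64 in thymus CCR7+, 7.90 to 8.29 in thymus CCR7-, 9.54 to 10.23 in polyI:C, 10.38 to 12.07 in untreated spleen CCR7+ and 9.45 to 9.55 in spleen CCR7- arrays. All spleen arrays and no thymus array carry the mark SetA in their names, so whatever it stands for cannot be told apart from tissue.

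Of the 26 tested subunits, 9 were called in thymus CCR7+ against thymus CCR7- cells (7 higher, 2 lower), where 37.3% of all tested genes were called (16.8% higher, 20.4% lower). In untreated spleen CCR7+ against CCR7- cells 10 were called (7 higher, 3 lower), where 36.5% of all genes were called (12.3% higher, 24.1% lower). In polyI:C CCR7+ against untreated CCR7- cells 11 were called (8 higher, 3 lower), where 46.4% of all genes were called (18.4% higher, 28% lower). These members made up 34.6%, 38.5% and 42.3% of those tested, so as a class the subunits were called about as often as other genes. Their median change was 0.04, 0.07 and 0.27 on the log2 scale in the 3 comparisons, where all genes had -0.06, -0.03 and 0.02. Called and at least 2-fold apart were 4, 6 and 7 subunits, with 21.2%, 19.6% and 27.7% of all genes. PolyI:C against untreated spleen CCR7+ cells gave 5 calls (3 higher, 2 lower), 4 of them at least 2-fold apart. Of all genes 18.2% were called there (8.58% higher, 9.66% lower, 8.94% called and at least 2-fold). A call here is a limma test on log2 values over all 15 arrays with a Benjamini-Hochberg adjusted p under 0.05. Nothing says that replicates came from separate mice or sorts, so the p-values measure only the spread between these arrays, and 3 arrays a group limit the precision.

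**Figure D1:**
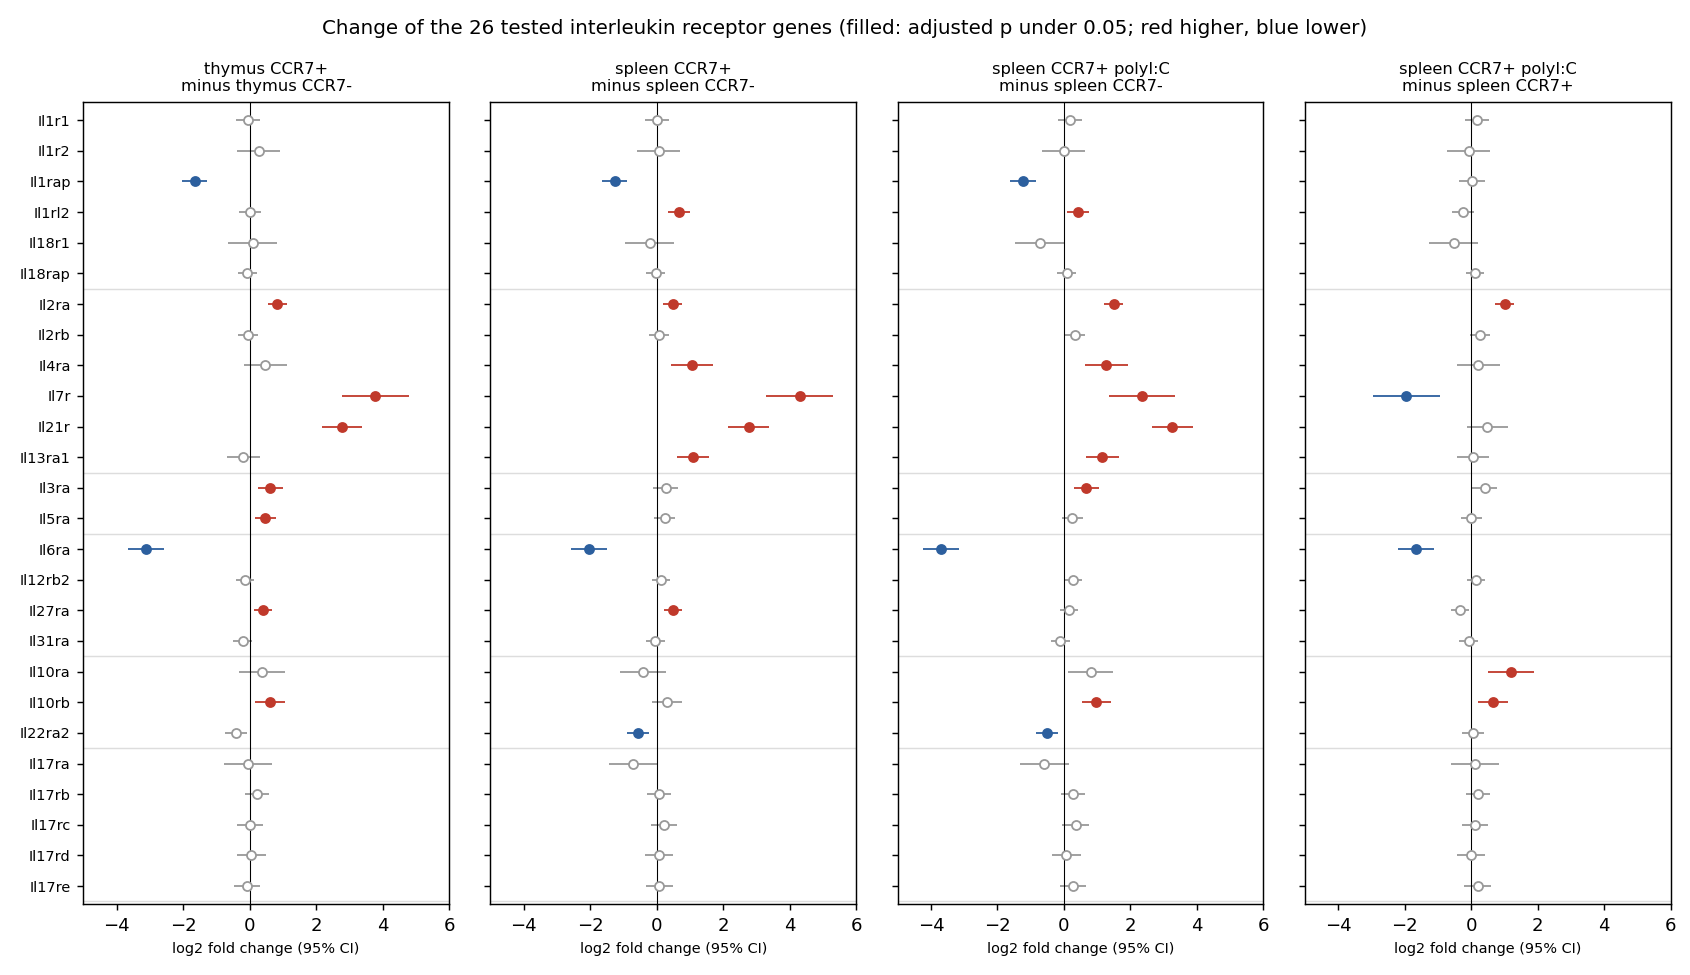
Log2 fold change with its 95% confidence interval (x axis) of each of the 26 tested interleukin receptor genes, grouped by family down the page, in the 3 maturation comparisons and in polyI:C against untreated spleen CCR7+ cells. Filled points were called (red higher, blue lower); Il7r and Il21r lie farthest right and Il6ra and Il1rap farthest left in the 3 maturation panels.

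5 subunits were called in the same direction in all 3 maturation comparisons. The share of all tested genes that met this rule is not given here, so the count has no background. Taken singly, the comparisons called 37.3% (thymus), 36.5% (untreated spleen) and 46.4% (polyI:C) of all genes. The spleen comparisons also share their CCR7- arrays. Whether the count exceeds that of other genes was therefore not tested. Of the 5, Il7r, Il21r and Il2ra were higher and Il6ra and Il1rap were lower in CCR7+ cells. As their values carry most of what follows, the 250 bases before each RefSeq start site (RefSeq, GRCm38.p6) are shown here, 5′ to 3′ in the direction of the gene. Capitals mark matches to TTCNNNGAA, the letters bound by STAT dimers, or to GGGNNTTCC on either strand, a short form of the NF-kappaB element. The windows are chr15:9529877-9530126 on the minus strand for Il7r, chr7:125603179-125603428 on the plus strand for Il21r, chr2:11642542-11642791 on the plus strand for Il2ra, chr3:89913197-89913446 on the minus strand for Il6ra and chr16:26581455-26581704 on the plus strand for Il1rap.
Il7r: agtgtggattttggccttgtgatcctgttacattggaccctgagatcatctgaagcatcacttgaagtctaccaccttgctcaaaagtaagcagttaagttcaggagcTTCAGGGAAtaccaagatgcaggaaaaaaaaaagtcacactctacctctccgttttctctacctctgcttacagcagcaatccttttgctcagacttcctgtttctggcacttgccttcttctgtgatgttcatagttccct
Il21r: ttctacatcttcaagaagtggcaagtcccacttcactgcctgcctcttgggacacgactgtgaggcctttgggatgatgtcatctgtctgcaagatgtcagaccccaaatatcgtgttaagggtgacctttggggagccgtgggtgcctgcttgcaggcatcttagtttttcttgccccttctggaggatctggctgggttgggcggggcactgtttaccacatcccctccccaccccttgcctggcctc
Il2ra: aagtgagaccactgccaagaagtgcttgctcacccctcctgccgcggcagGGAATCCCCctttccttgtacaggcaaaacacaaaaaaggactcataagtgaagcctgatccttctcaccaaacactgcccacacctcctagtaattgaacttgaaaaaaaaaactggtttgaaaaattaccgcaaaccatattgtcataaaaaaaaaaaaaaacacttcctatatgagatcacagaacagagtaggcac
Il6ra: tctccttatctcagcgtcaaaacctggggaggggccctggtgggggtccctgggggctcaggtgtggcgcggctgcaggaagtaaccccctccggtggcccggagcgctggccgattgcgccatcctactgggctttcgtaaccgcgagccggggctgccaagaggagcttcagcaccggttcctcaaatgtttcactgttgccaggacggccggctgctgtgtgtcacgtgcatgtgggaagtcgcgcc
Il1rap: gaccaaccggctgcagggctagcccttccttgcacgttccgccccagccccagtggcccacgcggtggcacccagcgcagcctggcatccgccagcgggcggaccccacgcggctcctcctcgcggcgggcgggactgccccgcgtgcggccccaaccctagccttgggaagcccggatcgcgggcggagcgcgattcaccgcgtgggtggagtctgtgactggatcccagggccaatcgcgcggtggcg
Of these windows, that of Il7r held 1 match to TTCNNNGAA and that of Il2ra 1 match to GGGNNTTCC. In all, 27 of the 34 members had a window, with 30 windows between them. TTCNNNGAA, which reads the same on both strands, stood in 5 of the 30 (Il7r, Il12rb2, Il18r1, Il1r2 and Il31ra) and in 7.02% of all 32851 windows. GGGNNTTCC stood in 3 of the 30 (Il2ra, Il13ra1 and Il1r1) and in 4.98% of all windows. A match says only that the letters are there.

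In the common gamma chain family, counted here with the IL-13 receptor chains that pair with Il4ra or bind its ligands, the called members were Il7r, Il21r, Il2ra, Il4ra and Il13ra1. With the probe set used for each gene, every call of the family in the 3 maturation comparisons was a rise. Called were 3 of 6 in thymus, 5 of 6 in untreated spleen and 5 of 6 after polyI:C, where 16.8%, 12.3% and 18.4% of all genes were called higher. Il7r encodes the alpha chain of the receptors for IL-7 and, with CRLF2, for TSLP. It read 10.05, 10.12 and 9.69 in thymus CCR7+ cells, against 6.38, 6.52 and 5.62 in thymus CCR7- cells. In untreated spleen it read 11.23, 10.99 and 10.62 in CCR7+ cells, against 6.31, 7.21 and 6.43 in CCR7- cells. Every CCR7+ array lay more than 3 log2 units above every CCR7- array of its tissue. The change was 3.78 (SE 0.46, 13.8-fold, adjusted p = 1.67e-05) in thymus and 4.30 (SE 0.46, 19.6-fold, adjusted p = 9.5e-06) in untreated spleen. The 2 changes differed by -0.51 (95% confidence interval -1.92 to 0.90, adjusted p = 0.763).

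After polyI:C, Il7r read 8.88, 10.30 and 7.83, all 3 above the spleen CCR7- arrays and all 3 below the untreated CCR7+ arrays. It was 5.11-fold higher than in untreated spleen CCR7- cells (log2 change 2.35, SE 0.46, adjusted p = 0.000732) and lower than in untreated CCR7+ cells (log2 change -1.94, SE 0.46, adjusted p = 0.00957). The polyI:C arrays were the most spread of the 5 groups for this gene, with a mean of 9.0 ± 1.24 (SD, n = 3). The fit of the compared groups alone ended the call between polyI:C and untreated CCR7+ cells. The second Il7r probe set changed by 3.25 in thymus, 3.24 in untreated spleen, 1.73 after polyI:C against CCR7- cells and -1.51 against untreated CCR7+ cells. T cells and B cell precursors also use IL-7, and their markers moved with Il7r in part. Of 7 tested T cell markers 6 were higher in thymus CCR7+ than thymus CCR7- cells, 1 was higher in untreated spleen CCR7+ than CCR7- cells, and 1 was higher after polyI:C than in CCR7- cells (by 3.52). Of 4 tested immature thymocyte markers 2 were higher in thymus CCR7+ cells (up to 2.85, Rag1), and limma called none in either spleen comparison with CCR7- cells (0 of 4 at an unadjusted p under 0.05 in each). Of 5 B cell markers 2 were higher in thymus CCR7+ than thymus CCR7- cells (up to 1.97) and 4 in untreated spleen CCR7+ than CCR7- cells. In polyI:C against untreated CCR7+ cells, where Il7r was lower, 2 of the 5 were lower (down to -2.98), and limma called none in polyI:C CCR7+ cells against CCR7- cells (0 of 5 at an unadjusted p under 0.05). What part other cells had in the values of Il7r, or of the other higher members in these comparisons, was not tested. In sorted bulk samples, fewer cells of a type and less RNA per cell cannot be told apart.

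**Figure D2:**
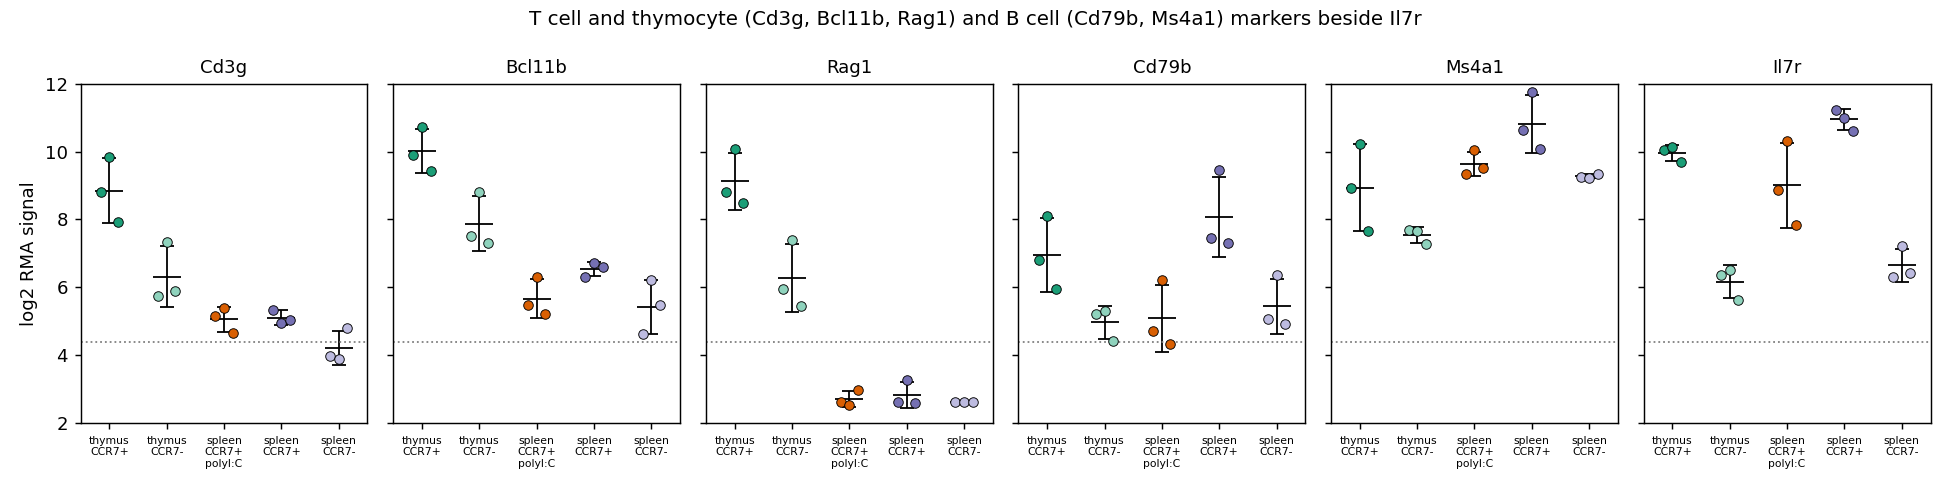
Log2 RMA signal (y axis) of 3 T cell or thymocyte markers, 2 B cell markers and Il7r in each of the 15 arrays, by group; bars give the mean and SD and the dotted line the filter at 4.39. Cd3g, Bcl11b and Rag1 are higher in all thymus CCR7+ than in all thymus CCR7- arrays, as is Il7r, Rag1 is at 3.27 or below in the spleen arrays, and Cd79b is lower in polyI:C than in untreated spleen CCR7+ cells.

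Il21r encodes the ligand-binding chain of the IL-21 receptor. It read 8.47, 8.96 and 8.69 in thymus CCR7+ cells, against 6.26, 5.91 and 5.61 in thymus CCR7- cells. The polyI:C cells read 9.38, 9.52 and 9.79 and the untreated spleen CCR7+ cells 8.53, 9.51 and 9.16, against 5.83, 6.89 and 6.18 in spleen CCR7- cells. No CCR7+ array overlapped with a CCR7- array. The change was 2.78 (SE 0.28, 6.89-fold, adjusted p = 2.92e-06) in thymus, 2.77 (SE 0.28, 6.81-fold, adjusted p = 5.73e-06) in untreated spleen and 3.26 (SE 0.28, 9.60-fold, adjusted p = 4.3e-07) after polyI:C. The thymus and spleen changes differed by 0.02 (95% confidence interval -0.85 to 0.88). PolyI:C against untreated CCR7+ cells gave 0.50 (adjusted p = 0.276), and the 2 groups overlapped.

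Il2ra encodes CD25, the alpha chain that raises the affinity of the IL-2 receptor. Its arrays read 6.09, 5.99 and 6.09 in thymus CCR7+ cells, against 5.16, 5.31 and 5.18 in thymus CCR7- cells. After polyI:C they read 6.34, 6.85 and 6.47, and in untreated spleen CCR7+ cells 5.60, 5.50 and 5.52, against 5.01, 5.10 and 5.04 in spleen CCR7- cells. No 2 of the 5 groups overlapped, with polyI:C highest and spleen CCR7- lowest. Il2ra rose 1.79-fold in thymus (log2 change 0.84, adjusted p = 0.000169), 1.40-fold in untreated spleen (0.49, adjusted p = 0.0102) and 2.84-fold after polyI:C (1.51, adjusted p = 5.31e-07). It was the only member of its family called higher in polyI:C than in untreated CCR7+ cells, by 1.02 (2.02-fold, adjusted p = 0.000123), and it was higher in thymus than in spleen CCR7+ cells by 0.52 (1.43-fold, adjusted p = 0.0208). The tissue call was lost with only the groups compared and without replicate 1 or 3 of thymus CCR7+ or replicate 3 of spleen CCR7+, and 5 of 7 T cell markers were higher in the same comparison (up to 3.74, Cd3g). The second Il2ra probe set gave larger changes, 2.42 in thymus, 0.86 in untreated spleen, 2.55 after polyI:C and 1.69 for polyI:C against untreated CCR7+ cells. The untreated spleen call was lost with that probe set and with the mean of both. The beta chain, Il2rb, was called in no comparison and read 5.02 to 5.58 in all 15 arrays.

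Il4ra and Il13ra1 encode the 2 chains of the type II receptor for IL-4 and IL-13. Il4ra read 9.22, 8.31 and 8.70 after polyI:C and 8.78, 8.11 and 8.68 in untreated spleen CCR7+ cells, against 7.22, 7.44 and 7.74 in spleen CCR7- cells. It rose 2.42-fold after polyI:C (log2 change 1.28, SE 0.30, adjusted p = 0.00267) and 2.08-fold in untreated spleen (1.06, SE 0.30, adjusted p = 0.0122). For Il4ra, neither spleen CCR7+ group overlapped with spleen CCR7- cells. In thymus it read 8.05, 7.46 and 8.0 in CCR7+ cells and 6.70, 7.68 and 7.70 in CCR7- cells, which overlapped (0.47, adjusted p = 0.256). Another Il4ra probe set separated the thymus groups as well. It read 8.0, 8.84 and 8.40 in thymus CCR7+ cells, against 5.62, 5.07 and 5.65 in thymus CCR7- cells, a change of 2.97 (SE 0.24, adjusted p = 4.15e-07) when the probe set of largest variance stood for each gene. That probe set changed by 2.08 in untreated spleen and 2.14 after polyI:C. The thymus result for Il4ra therefore differs with the probe set read. Without replicate 1 of spleen CCR7- the untreated spleen change was 0.94 and not called.

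Il13ra1 read 9.33, 8.99 and 8.95 in thymus CCR7+ cells, and 9.33, 8.95 and 9.54 in thymus CCR7- cells, which overlapped (log2 change -0.18). It read 9.17, 8.90 and 8.69 after polyI:C and 9.16, 9.01 and 8.40 in untreated spleen CCR7+ cells, against 7.44, 7.83 and 8.01 in spleen CCR7- cells. The lowest values were those of the 3 spleen CCR7- arrays, below the 12 others. The change was 1.10 (SE 0.23, 2.14-fold, adjusted p = 0.0016) in untreated spleen and 1.16 (SE 0.23, 2.23-fold, adjusted p = 0.00067) after polyI:C. Il13ra1 was also higher in thymus CCR7- than in spleen CCR7- cells, by 1.51 (2.86-fold, adjusted p = 0.000537). Markers of thymic epithelium were higher there too, with a summed signal of 6 genes of 10.54 to 10.71 in thymus CCR7- and 7.62 to 7.87 in spleen CCR7- arrays and 2 of 5 tested called higher (up to 4.03, Epcam), and their part in the Il13ra1 values was not tested. The thymus change minus the spleen change was -1.28 (SE 0.32, 95% confidence interval -1.97 to -0.60, adjusted p = 0.0433), the only call among the 26 in that test. The call was lost under 7 of 11 other settings and without 8 of 12 single arrays. In that test 3.18% of all genes were called (1.79% higher, 1.39% lower, 2.79% called and at least 2-fold). The 5 Il13ra1 probe sets disagreed, with untreated spleen changes between -0.85 and 1.10 and tissue differences between -1.28 and -0.05. With the probe set of largest variance the untreated spleen change turned to -0.85 and the polyI:C change to -0.51, neither of them called. In thymus limma called Il13ra1 lower with that probe set (-0.89, adjusted p = 0.0452). It was also called lower there with the mean of the 5 probe sets (-0.46, adjusted p = 0.0435).

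**Figure D3:**
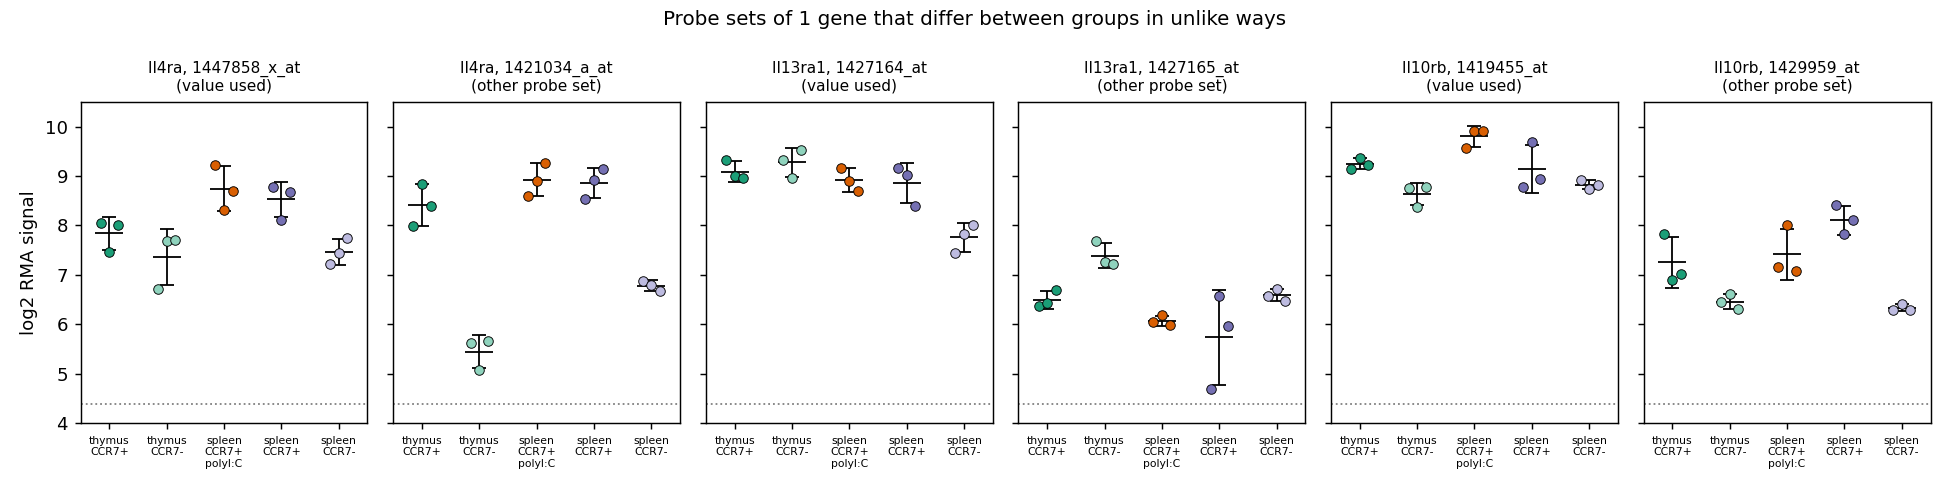
Log2 RMA signal (y axis) of 2 probe sets each of Il4ra, Il13ra1 and Il10rb in the 15 arrays, by group, with the probe set used for the gene left of the other. Points are arrays, bars the mean and SD (n = 3), and the dotted line is the filter at 4.39. The second Il4ra probe set separates the thymus groups, the second Il13ra1 probe set is not lowest in spleen CCR7- cells, and the second Il10rb probe set averages 7.42 after polyI:C and 8.11 in untreated spleen CCR7+ cells.

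The ligand-binding chain of the IL-6 receptor, Il6ra, showed the largest fall of the members. It read 5.53, 5.54 and 5.49 in thymus CCR7+ cells, against 8.60, 8.74 and 8.57 in thymus CCR7- cells. The polyI:C cells read 5.87, 5.37 and 5.40 and the untreated spleen CCR7+ cells 6.55, 7.14 and 7.89, against 9.34, 9.18 and 9.19 in spleen CCR7- cells. CCR7+ and CCR7- arrays did not overlap, and the untreated spleen CCR7+ arrays lay between the other mature groups and the immature ones. Il6ra fell by 3.12 in thymus (SE 0.25, 8.68-fold, adjusted p = 2.89e-07), by 2.04 in untreated spleen (SE 0.25, 4.13-fold, adjusted p = 2.79e-05) and by 3.69 after polyI:C (SE 0.25, 12.9-fold, adjusted p = 3.95e-08). It was 3.13-fold lower in polyI:C than in untreated CCR7+ cells (log2 change -1.65, adjusted p = 0.000381) and 3.19-fold lower in thymus than in spleen CCR7+ cells (-1.67, adjusted p = 0.000497). The thymus change minus the spleen change was -1.07 (95% confidence interval -1.83 to -0.32, adjusted p = 0.132), not called. It was called without replicate 1 of spleen CCR7+ (-1.40) and with array weights (-1.28). Monocytes and macrophages also express Il6ra. The 5 tested markers of these cells, among them Csf1r, had a summed signal (log2) of 8.65 to 9.88 in thymus CCR7+ and 10.62 to 11.02 in thymus CCR7- arrays, and of 8.21 to 10.39 in polyI:C, 9.71 to 10.67 in untreated spleen CCR7+ and 11.27 to 11.79 in spleen CCR7- arrays. In thymus 1 of the 5 was lower (Csf1r, -2.50) and 1 higher, in untreated spleen 1 was lower (Lyz2, -1.99), and after polyI:C against CCR7- cells 2 were lower (down to -4.43, Lyz2) and 1 higher. Their median change was -0.63, -0.38 and -1.46, and the part of such cells in the Il6ra values was not tested. The other Il6ra probe set exceeded 4.39 in 3 arrays and changed by -0.18 in thymus, 0.05 in untreated spleen and -0.01 after polyI:C.

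Of the other gp130 and IL-12 family members, Il27ra was called and Il12rb2 and Il31ra were not. Il27ra, which pairs with gp130 to bind IL-27, read 5.17, 5.41 and 5.21 in thymus CCR7+ cells, against 4.72, 4.94 and 4.93 in thymus CCR7- cells. In untreated spleen it read 5.45, 5.61 and 5.47 in CCR7+ cells, against 4.99, 5.17 and 4.90 in CCR7- cells. The groups did not overlap in either tissue, and the rise was 1.32-fold in thymus (0.40, adjusted p = 0.0206) and 1.41-fold in untreated spleen (0.49, adjusted p = 0.00625). The thymus call was lost without replicate 1 of thymus CCR7- or replicate 2 of thymus CCR7+, and the spleen call with only the groups compared. After polyI:C it read 5.15, 5.14 and 5.23, a change of 0.15 that was not called. The shared subunit gp130 (Il6st), which lies outside the rule, fell by 1.26 in untreated spleen and by 1.06 after polyI:C, and was lower in thymus CCR7- than spleen CCR7- cells (log2 change -1.76). Its change in thymus is not given here.

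In the IL-1 receptor family, Il1rap fell and Il1rl2 rose in spleen, while Il1r1, Il1r2, Il18r1 and Il18rap were called in no comparison. Il1rap encodes the accessory chain that the receptors for IL-1, IL-33 and IL-36 need to signal. It read 5.22, 5.29 and 5.31 in thymus CCR7+ cells, against 7.13, 6.66 and 6.99 in thymus CCR7- cells. After polyI:C it read 5.24, 5.42 and 4.99 and in untreated spleen CCR7+ cells 4.81, 5.52 and 5.22, against 6.51, 6.39 and 6.45 in spleen CCR7- cells. The 9 CCR7+ arrays all lay below the 6 CCR7- arrays. Il1rap fell by 1.65 in thymus (SE 0.18, 3.15-fold, adjusted p = 5.51e-06), by 1.27 in untreated spleen (2.41-fold, adjusted p = 0.000102) and by 1.23 after polyI:C (2.35-fold, adjusted p = 5.7e-05). A second detected probe set gave -1.18, -1.04 and -1.15.

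Il1rl2 encodes the IL-36 receptor's own chain, which pairs with the product of Il1rap. It read 5.43, 5.23 and 5.61 after polyI:C and 5.87, 5.41 and 5.70 in untreated spleen CCR7+ cells, against 4.88, 5.15 and 4.97 in spleen CCR7- cells. It rose 1.58-fold in untreated spleen (0.66, adjusted p = 0.00378) and 1.34-fold after polyI:C (0.42, adjusted p = 0.0362). The polyI:C call was lost with only the groups compared and without replicate 1 or 3 of spleen CCR7- or of polyI:C. Thymus CCR7+ cells read 4.80, 4.87 and 5.16 and thymus CCR7- cells 4.92, 4.96 and 4.94, with a change of 0.00. In thymus CCR7+ cells it was lower than in spleen CCR7+ cells (-0.72, 1.64-fold, adjusted p = 0.00716), a call lost with only the groups compared. The difference between the tissues' changes was -0.66 (95% confidence interval -1.12 to -0.19, adjusted p = 0.134), not called. The other Il1rl2 probe set was above the filter in 0 arrays and averaged 2.88. It changed by 0.22 in thymus, -0.03 in untreated spleen and 0.23 after polyI:C against CCR7- cells. Being this dim, that probe set cannot decide whether the rise in spleen holds. Il1r2, the decoy receptor for IL-1, read 5.03, 6.31 and 4.75 in thymus CCR7+ cells. Its highest value was in replicate 2, the array that also had the highest Cd3g, a T cell receptor subunit (9.83, against 8.80 and 7.92 in the other thymus CCR7+ arrays), and whether T cell RNA took part was not tested.

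The common beta chain partners Il3ra and Il5ra were called in thymus, and Il3ra after polyI:C. Il3ra, the IL-3 receptor alpha chain, read 5.90, 6.03 and 5.87 in thymus CCR7+ cells, against 5.20, 5.27 and 5.46 in thymus CCR7- cells (0.63, 1.54-fold, adjusted p = 0.00981). It read 5.84, 6.02 and 6.47 after polyI:C, against 5.11, 5.60 and 5.58 in spleen CCR7- cells (0.68, 1.60-fold, adjusted p = 0.00461). The groups did not overlap in either comparison. Il5ra, the IL-5 receptor alpha chain, exceeded 4.39 in 4 of 15 arrays, all of them CCR7+ arrays, so it passed the filter through the cells in which it was higher. It read 4.34, 4.47 and 4.26 in thymus CCR7+ cells, against 4.11, 3.91 and 3.62 in thymus CCR7- cells (0.48, adjusted p = 0.0177), and of these 6 arrays 1 was above 4.39. The call was lost without replicate 3 of thymus CCR7- or replicate 2 of thymus CCR7+. Without Il5ra, 6 subunits were higher in thymus. The shared chains Csf2rb and Csf2rb2 rose in thymus by 0.89 and 0.67 and in untreated spleen by 0.63 and 0.74.

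Both chains of the IL-10 receptor were called higher after polyI:C than in untreated CCR7+ cells. For Il10rb the call was lost under 6 of 11 other settings and without 4 of 6 single arrays, and its second probe set changed by -0.69. Il10ra, which binds IL-10, read 6.84, 7.24 and 7.73 in thymus CCR7+ cells and 7.12, 6.90 and 6.71 in thymus CCR7- cells. In spleen it read 9.04, 9.01 and 9.54 after polyI:C, 7.17, 8.04 and 8.75 in untreated CCR7+ cells and 8.46, 8.5 and 8.23 in CCR7- cells. All 3 polyI:C arrays lay above all other arrays of both tissues. It was 2.31-fold higher after polyI:C than in untreated CCR7+ cells (1.21, SE 0.32, adjusted p = 0.0172) and lower in thymus CCR7- than spleen CCR7- cells (-1.49, 2.80-fold, adjusted p = 0.00873). Against spleen CCR7- cells the polyI:C change was 0.80 (adjusted p = 0.0536), not called here but called under 6 of 11 other settings. The rise over untreated CCR7+ cells was no longer called without replicate 1 of spleen CCR7+ (0.80), without replicate 3 of polyI:C (1.04) or with array weights (1.01). It was also lost when only the groups compared were fitted (1.21). A second Il10ra probe set, above 4.39 in all 15 arrays, changed less. That probe set gave 0.41 for polyI:C against untreated CCR7+ cells and -0.38 for thymus CCR7- against spleen CCR7- cells.

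Il10rb, the second chain of the receptors for IL-10, IL-22 and type III interferons, read 9.15, 9.37 and 9.23 in thymus CCR7+ cells, against 8.75, 8.38 and 8.77 in thymus CCR7- cells. After polyI:C it read 9.56, 9.92 and 9.92 and in untreated spleen CCR7+ cells 8.79, 9.69 and 8.93, against 8.92, 8.74 and 8.81 in spleen CCR7- cells. It rose in thymus (0.61, 1.53-fold, adjusted p = 0.0301) and after polyI:C against CCR7- cells (0.97, 1.97-fold, adjusted p = 0.00129). In untreated spleen its change was 0.31 and not called. The second Il10rb probe set, above 4.39 in all 15 arrays, changed by 0.79 in thymus, 1.77 in untreated spleen and 1.08 after polyI:C. In untreated spleen that probe set read 8.41, 7.82 and 8.10 in CCR7+ cells, against 6.30, 6.41 and 6.30 in CCR7- cells. The untreated spleen result for Il10rb therefore differs with the probe set read. The thymus call was lost without replicate 2 of thymus CCR7- or replicate 2 or 3 of thymus CCR7+. PolyI:C against untreated CCR7+ cells gave 0.66 (adjusted p = 0.0388), with replicate 2 of untreated CCR7+ among the polyI:C values. That result turned to -0.01 with the mean of the 2 Il10rb probe sets and to -0.69 with the probe set of largest variance, neither of them called. The call was also lost with arrays centred on their medians, trend and robust settings, array weights or only the groups compared, and without replicate 1 or 3 of untreated CCR7+ or replicate 2 or 3 of polyI:C. Il22ra2, a soluble receptor that binds IL-22, read 4.65, 4.43 and 4.63 in untreated spleen CCR7+ cells, against 5.13, 4.99 and 5.29 in spleen CCR7- cells, and fell by 0.57 (1.48-fold, adjusted p = 0.0108). After polyI:C it read 4.65, 4.65 and 4.60 and fell by 0.50 (adjusted p = 0.0162), a call lost without replicate 3 of spleen CCR7-.

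None of the 5 tested IL-17 receptor subunits (Il17ra, Il17rb, Il17rc, Il17rd and Il17re) was called by limma in any of the 7 comparisons. At an unadjusted p under 0.05 there was 1 among the 35 pairs of gene and comparison, Il17ra in thymus CCR7- against spleen CCR7- cells. Il17ra, the chain shared by the receptors for IL-17A, IL-17F and IL-25, read 8.71, 9.20 and 8.74 in thymus CCR7+ cells and 9.10, 9.01 and 8.70 in thymus CCR7- cells. It read 9.32, 9.43 and 9.29 after polyI:C, 8.23, 9.68 and 9.77 in untreated spleen CCR7+ cells and 10.07, 10.32 and 9.40 in spleen CCR7- cells. Thymus CCR7- lay below spleen CCR7- cells by 1.0 without a call (log2 difference -1.0, adjusted p = 0.0978). Over the 12 tested subunits that were called in none of the comparisons, the array values lay between 3.58 and 10.32 and the log2 changes of the comparisons between groups between -1.0 and 0.94.

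Between tissues, 2 subunits were called in thymus CCR7- against spleen CCR7- cells, Il13ra1 higher and Il10ra lower, where 8.16% of all genes were called (4.92% higher, 3.24% lower). Both were at least 2-fold apart, as were 4.92% of all genes. In thymus CCR7+ against spleen CCR7+ cells 3 were called, Il2ra higher and Il6ra and Il1rl2 lower, where 12.2% of all genes were called (8.71% higher, 3.47% lower). Of these Il6ra alone was at least 2-fold apart, as were 5.64% of all genes. Without replicate 1 of spleen CCR7+ the second count was 5, while all genes called went from 1660 to 1447. With the probe set of largest variance, 2 subunits were called in thymus CCR7- against spleen CCR7- cells, both lower, and 1153 of all genes. There limma called Il4ra lower (-1.34, adjusted p = 0.0028), and the Il13ra1 difference was 0.81 and not called. The plot of values by array shows these groups side by side.

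**Figure D4:**
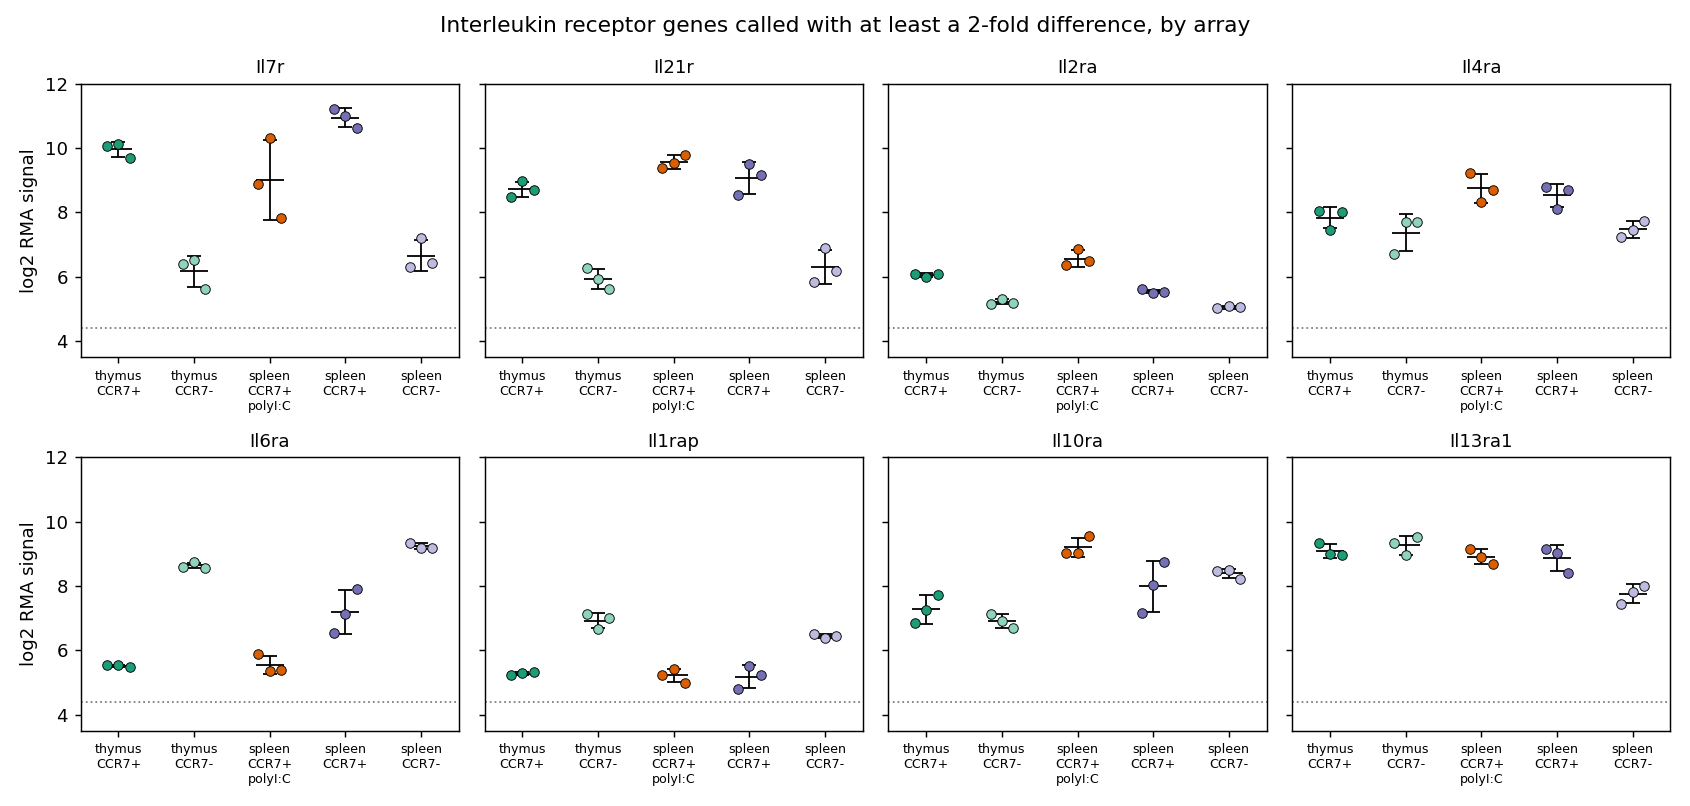
Log2 RMA signal (y axis) of the 8 interleukin receptor genes called with at least a 2-fold difference between groups, in each of the 15 arrays. Points are arrays, bars the mean and SD (n = 3), and the dotted line is the filter at 4.39. Il7r, Il21r and Il2ra are higher and Il6ra and Il1rap lower in each CCR7+ group than in the CCR7- group of its tissue, with no overlap.

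The JAK, STAT and adaptor genes that these receptors signal through were read from a list of 20, of which 18 were tested. In thymus CCR7+ against CCR7- cells 12 of the 18 were called (10 higher, 2 lower), in untreated spleen 7 (6 higher, 1 lower), and after polyI:C against CCR7- cells 11 (7 higher, 4 lower). These are 66.7%, 38.9% and 61.1% of the list, beside 37.3%, 36.5% and 46.4% of all tested genes. Stat4, used by the IL-12 receptor, read 8.95, 9.75 and 9.58 in thymus CCR7+ cells, against 3.07, 4.09 and 3.63 in thymus CCR7- cells. It rose by 5.83 in thymus, by 2.38 in untreated spleen and by 7.14 after polyI:C against CCR7- cells. Stat3, used by the IL-6, IL-10, IL-21 and IL-27 receptors, rose by 1.56 in thymus. Myd88, the adaptor of the IL-1 receptor family, fell by 1.70 in thymus.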

How the data were processed

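Labelled RNA of 15 sorted samples was measured on Affymetrix Mouse Genome 430 2.0 arrays. Per the labels' protocols, 40 ng of RNA went through 2 rounds of cRNA amplification, which favours the 3′ end of transcripts. The deposited log2 values came from RMA, run by the authors in the affy package per the submitters' processing notes. The sources used here give neither versions nor which arrays were normalised together. RMA compresses changes near background. Of 45101 probe sets, 34958 carried 1 gene symbol in the platform annotation, 932 several and 9211 were not listed. Group means of all 15 arrays were fitted with limma 3.58.1 in R 4.3.3 (5 groups, eBayes, 10 residual and 4.01 prior degrees of freedom), for 7 comparisons adjusted over 13629 genes. Changes are log2 differences of group means, the group named first minus the other, and the tissue difference is the thymus minus the spleen change. The fit was checked on simulated data with known changes. The members, the lists of shared chains, signalling genes, ligands and markers, and the rule for naming genes were chosen with earlier results of these data known. By that rule, members called, at least 2-fold apart and not overlapping between 2 groups, or called in the tissue difference, are given array by array. Array values of other members, and the named genes of other lists, were picked after their values were seen. Alternatives were other filters, probe set rules, scalings, eBayes settings, array weights, the replicate block, the compared groups alone and leaving out each array.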

Additional observations from a re-analysis of the deposited data

Results flagged for a closer look

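The change of Il13ra1, a chain of the receptor for IL-4 and IL-13, differed between thymus and untreated spleen by the test of the difference itself. The thymus change minus the spleen change was -1.28 (SE 0.32, adjusted p = 0.0433). The 3 spleen CCR7- arrays lay below the 3 arrays of each other group. The call was lost under 7 of 11 other settings and without 8 of 12 single arrays, and the difference was -0.05 with the probe set of largest variance.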

How the results depend on the processing

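The alternatives gave 1205 values over 69 pairs of gene and comparison, 41 of them called. Of these values 1129 left the call as it was, 53 lost it, 19 gained one and 4 changed sign where a value was called. A change of sign between 2 uncalled values was counted among the 1129. Of the 41 called pairs, 24 kept the call under every alternative run. Of the 4 sign changes, those of Il13ra1 were in untreated spleen (-0.85) and after polyI:C (-0.51) with the probe set of largest variance. Those of Il10rb were in polyI:C against untreated CCR7+ cells, with the mean of the probe sets (-0.013) and the probe set of largest variance (-0.69). The cause was not tested. For polyI:C against untreated CCR7+ cells 5 subunits were called, 3 with array weights, 2 with only the groups compared, and 3 to 5 when single arrays were left out (3 without replicate 1 of spleen CCR7+ and without replicate 3 of polyI:C). All genes called there were 2486, 2052, 1093 and 1676 to 2516 in the same order (2516 and 1676 without the 2 named arrays). For thymus CCR7- against spleen CCR7- cells 2 were called, 5 with array weights, 5 with only the groups compared and 2 to 2 when single arrays were left out. All genes called there were 1112, 1988, 1396 and 741 to 961. For thymus CCR7+ against spleen CCR7+ cells 3 were called and 2 to 5 without single arrays, where all genes called were 1660 and 967 to 1987. The tissue difference had 1 call (Il13ra1), 2 with array weights, and 0 with no filter, with the mean of the probe sets, with the probe set of largest variance, with arrays centred on their medians, with trend and robust settings and with only the groups compared. All genes called in the tissue difference were 433, 624 with array weights and 406 to 495 under the settings named with 0. Without single arrays the tissue difference had 0 to 1, and 263 to 534 of all genes. Maturation counts without single arrays were 6 to 9 in thymus, 9 to 12 in untreated spleen and 9 to 13 after polyI:C. All genes called there were 4376 to 4606, 3933 to 5130 and 5373 to 6246. No label says what the replicate numbers mean. Same-numbered arrays correlated from -0.40 to 0.64 about their group means, with 13 of 30 pairs above 0.1, and 8 of 15 arrays correlated best with their own number. Same-numbered thymus and spleen CCR7- arrays gave 0.57, 0.52 and 0.56, and untreated CCR7+ arrays 0.46, 0.42 and 0.59. Thymus CCR7- with untreated spleen CCR7+ arrays gave -0.16, -0.36 and -0.11. The main tests did not use the numbers. With the number as a block, the counts were 10, 10, 12, 5, 2, 4 and 0, against 9, 10, 11, 5, 2, 3 and 1 in the order of the 3 maturation comparisons, polyI:C against untreated CCR7+, thymus against spleen CCR7-, thymus against spleen CCR7+ and the tissue difference. All genes called with the block were 5168, 5064, 6354, 2585, 1201, 1775 and 467. Signal near background limits Il5ra and Il22ra2. Il27ra, at 4.72 to 5.61, also read low and was not tested with the 60th percentile filter (5.55).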

Other observations

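Of 15 tested interleukin ligands, 7 were called in thymus CCR7+ against CCR7- cells (5 higher, 2 lower), 9 in untreated spleen (7 higher, 2 lower) and 9 after polyI:C against CCR7- cells (7 higher, 2 lower). All tested genes were called at 37.3%, 36.5% and 46.4% in these comparisons, and the ligands at 46.7%, 60% and 60%. Il15, whose receptor shares the beta and common gamma chains with that of IL-2, read 11.78, 11.70 and 11.84 in thymus CCR7+ cells, against 8.38, 8.30 and 8.62 in thymus CCR7- cells, a rise of 3.34. Il7, the ligand of the Il7r product, read 4.93, 5.44 and 5.0 in thymus CCR7+ cells, against 3.96, 3.93 and 4.14 in thymus CCR7- cells, a rise of 1.11 close to the filter. Il18 fell by 3.24 and Il1b by 1.35 in thymus. Il1rn, which encodes a secreted blocker of the IL-1 receptor, read 9.32, 10.03 and 9.99 after polyI:C, against 4.13, 4.46 and 4.40 in spleen CCR7- cells, a rise of 5.45. Il6 read 7.13, 8.35 and 8.40 after polyI:C, against 4.84, 4.05 and 5.57 in spleen CCR7- cells, a rise of 3.14.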
